A study of Homo sapiens with 38 samples.

Results

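Silencing of ORMDL3 was compared with control in human A549 cells that had received interleukin 1 beta (IL1B) for 4 h. The comparison used the 8 arrays whose titles give 4 hours, 4 titled knockdown and 4 titled control, out of 38 arrays in the series. It covered all 14488 probe sets, of which 12132 carried 1 gene symbol, and these named 11893 genes. A549 is a long-established line from a lung adenocarcinoma and stands here for airway epithelium. In the knockdown group a pool of siRNAs against ORMDL3 was transfected in single wells of 24-well plates and left for 48 h. Serum was then withdrawn for 24 h, and IL1B was added at 1 ng/ml for 4 h. The control group had the same hours of IL1B, and the labels do not say which siRNA or reagent it received. Total RNA was measured on Affymetrix whole-transcript arrays. The other arrays cover 0, 2, 8 and 10 h of IL1B in both groups, with 4 arrays in each except the knockdown at 0 h and the control at 8 h, which have 3. All cells are 1 line, and the labels do not say whether the replicates were separate cultures, so p-values here measure the spread between arrays only.

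The ORMDL3 protein spans the membrane of the endoplasmic reticulum, and its gene lies in a region of the genome linked to childhood asthma. With its relatives ORMDL1 and ORMDL2 it binds serine palmitoyltransferase, the first enzyme of sphingolipid synthesis, and restrains it when ceramide is plentiful. IL1B acts on epithelial cells through the adaptors and kinases of the IL1 receptor complex, which switch on NF-kB and the MAP kinases. Within hours these raise the mRNAs of chemokines, adhesion molecules and their own regulators, such as IRAK2 and the inhibitor IRAK3.

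Levels are log2 values from the robust multi-array average (RMA), and each difference is knockdown minus control with its standard error (SE) from limma. A probe set was called when its p-value, adjusted over all probe sets by the Benjamini-Hochberg method, was under 0.05. Per-array values are given in the order of replicates 1 to 4.

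The labels held for the targeted gene. On the control arrays ORMDL3 stood at 7.52, 7.12, 7.11 and 6.78, and on the knockdown arrays at 5.55, 5.51, 5.44 and 5.33. The groups did not overlap, and the knockdown retained 31.3% of the control level. The difference of 1.67 was tested alone by an exact permutation test, two-sided, over the 70 arrangements of 4 and 4 arrays (p = 0.0286, the smallest this design can give). In the fit across all probe sets ORMDL3 fell by 1.67 ± 0.11 (adjusted p = 2.04e-12). ORMDL1 (difference -0.04 ± 0.09) and ORMDL2 (-0.07 ± 0.06) were not called.

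RMA equalises the distributions of arrays, so the medians of the 8 arrays, between 8.10 and 8.14, do not measure quality. Each array correlated at 0.988 to 0.992 on average with the others of its group, control replicate 4 being lowest. Array weights from limma ran from 0.49 for control replicate 4 to 1.31 for control replicate 3. The mean level of small nucleolar RNAs ran from 7.22 on control replicate 4 to 7.93 on control replicate 2. The A549 markers EPCAM, KRT8, KRT18, KRT7, CDH1, ABCA3 and LAMP3 had a mean level of 10.26 to 10.37 on control arrays and 10.21 to 10.37 on knockdown arrays, and SFTPB, SFTPC, NAPSA and NKX2-1 had no value to check. Of 7 leukocyte markers only CD68, CD14 and ITGAM had a value, with a mean of 8.04 to 8.11 in control and 8.12 to 8.22 in knockdown, which did not overlap, although no member was called. Of 9 fibroblast and endothelial markers COL1A1, THY1 and CDH5 had one, at 6.55 to 6.71 in control and 6.67 to 6.82 in knockdown. The part of these shifts in the results was not tested. In bulk RNA, fewer cells of a kind and less RNA per cell cannot be told apart.

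The knockdown changed 267 of 14488 probe sets at 4 h (1.84%), 161 higher (1.11%) and 106 lower (0.732%). The changes were small: the median size among the called was 0.42, and 27 of the higher and 20 of the lower passed 1.5-fold. For 244 of the 267 the groups of 4 arrays did not overlap, as against 6.03% of all probe sets. The differences and the overlap come from the same 8 arrays, so this count adds no separate support for the calls. The count was 152 without knockdown replicate 4, 152 without control replicate 3, and 36 when the spread came from the 8 arrays of 4 h alone. All 36 were among the 267. They held 17 of the 61 called probe sets of the genes given below with values of their own. SELE, IL23A, CXCL10, IRAK2 and NFKBID were not among the 36. In that fit the lists below of cytokines and chemokines, adhesion and acute phase genes, NF-kB genes and cholesterol genes had 0 called members. The lists of sphingolipid turnover, ATF4 response and prostaglandin genes kept 1 lower each and 0 higher. Those of YAP targets and matrix genes kept 1 higher each and 0 lower.

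Genes that IL1B raises were among those that fell in the knockdown. To count them, a set was taken from control arrays of 0 and 2 h, whose levels do not enter the 4 h differences, although the estimate of spread is shared by both, and 312 probe sets rose at least 2-fold, with a call, from 0 to 2 h of IL1B in control cells, where 10.3% of all were called higher and 9.77% lower. In the knockdown at 4 h, 23 of them were lower (7.37%, against 0.732% of all probe sets) and 4 were higher (1.28%, against 1.11%). Their median difference was -0.06, against -0.0044 over all probe sets, and 197 of the 312 were below 0. Of the 95 that IL1B had raised at least 4-fold, 11 were lower and 0 higher, with a median of -0.12. The count of 23 was 13 without control replicate 1, 11 without control replicate 2, 10 without control replicate 3 and 11 without knockdown replicate 4. On arrays of other hours, 28 members were lower and 1 higher at 8 h, where 1.26% and 1.62% of all probe sets were; at 10 h 22 were lower and 3 higher, against 1.19% and 1.09%.

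**Figure D1:**
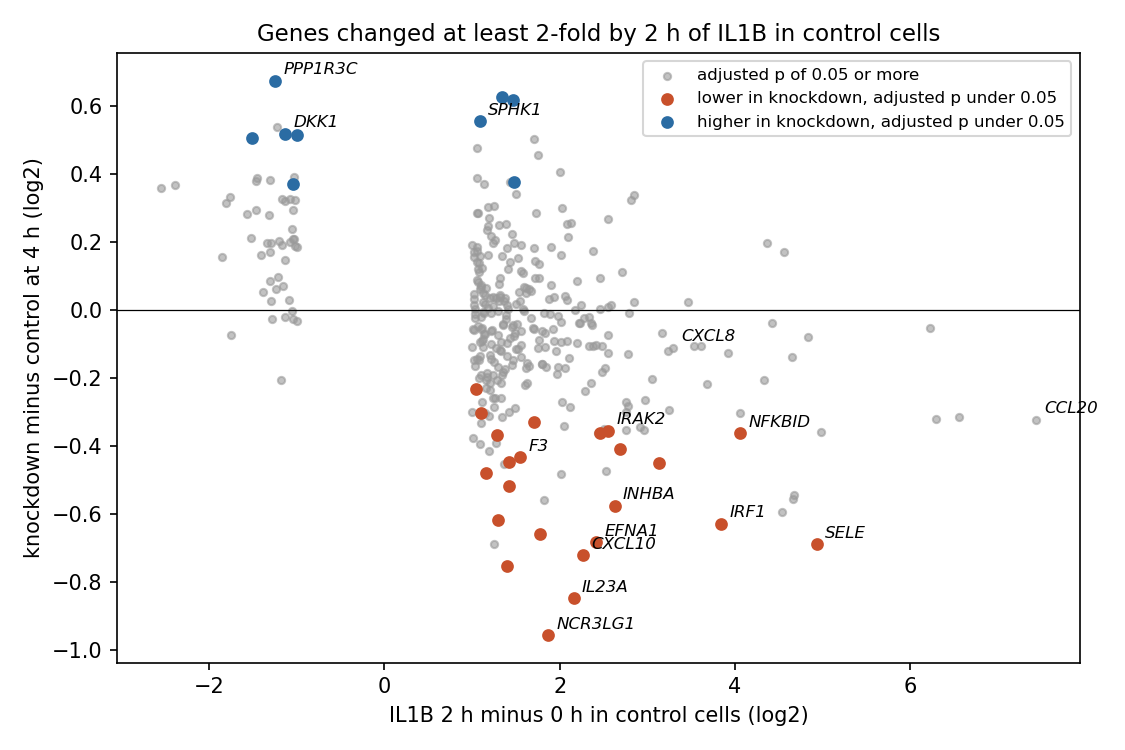
Each point is a probe set that changed at least 2-fold in control cells from 0 to 2 h of IL1B (x axis, log2), placed by its difference between knockdown and control at 4 h (y axis, log2). Red points were called lower and blue points called higher in the knockdown; of the 312 raised by IL1B 23 are red and 4 blue, and of the 51 lowered by it 0 are red and 5 blue.

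The promoters of 4 genes of the set are shown because each gene was lower in the knockdown and holds letters that the transcription factors downstream of IL1B are known to bind. The sequences are the 250 bases before the RefSeq start (GRCh38.p14), 5′ to 3′ on the gene's strand. Capitals mark the kB core GGGNNNTTC, the AP-1 motif TGANTCA or the interferon response core GAAANNGAA, each searched on both strands; no marked matches overlap.

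CXCL10: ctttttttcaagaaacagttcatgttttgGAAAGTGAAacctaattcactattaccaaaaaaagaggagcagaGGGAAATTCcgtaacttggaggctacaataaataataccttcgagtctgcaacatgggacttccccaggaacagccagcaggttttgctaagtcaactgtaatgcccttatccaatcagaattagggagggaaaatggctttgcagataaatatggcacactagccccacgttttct
SELE: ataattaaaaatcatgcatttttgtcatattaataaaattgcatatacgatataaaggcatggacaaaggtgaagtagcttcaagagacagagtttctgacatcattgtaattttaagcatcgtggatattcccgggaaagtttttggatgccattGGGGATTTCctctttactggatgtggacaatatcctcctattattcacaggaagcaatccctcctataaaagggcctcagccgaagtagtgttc
IL23A: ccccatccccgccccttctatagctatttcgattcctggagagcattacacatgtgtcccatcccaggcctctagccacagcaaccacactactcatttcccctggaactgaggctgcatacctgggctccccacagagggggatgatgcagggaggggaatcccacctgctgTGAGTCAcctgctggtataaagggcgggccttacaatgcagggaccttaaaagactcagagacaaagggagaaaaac
F3: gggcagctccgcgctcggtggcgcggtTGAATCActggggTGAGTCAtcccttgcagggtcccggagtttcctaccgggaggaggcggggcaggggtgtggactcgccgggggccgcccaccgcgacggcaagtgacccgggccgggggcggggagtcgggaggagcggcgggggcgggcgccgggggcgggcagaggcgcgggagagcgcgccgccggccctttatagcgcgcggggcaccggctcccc

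The CXCL10 window is chr4:76023498-76023747, minus strand, with the kB letters starting 177 bases and the interferon response core 221 bases before the start. That of SELE is chr1:169734080-169734329, minus strand, with the kB letters 94 bases before the start. In IL23A (chr12:56338634-56338883, plus strand) the AP-1 letters begin 77 bases before the start, and F3 (chr1:94541760-94542009, minus strand) holds them at 223 and 210 bases. Of the 20 named genes of the set that were lower in the knockdown, 19 had a window, and the kB core was in that of 5, the AP-1 motif in that of 4 and the interferon response core in that of 3. The kB core was in 26.3% of the 205 genes with a window that IL1B had raised and in 19% of the 9531 measured genes with one, counting any window of a gene. The AP-1 motif was in 12.7% and 6.2%, and the interferon response core in 10.2% and 7.01%. Over all 35116 windows in the table the shares were 13.3%, 6.57% and 6.88%. A match shows only that the letters are present, and binding sites with other letters were neither searched for nor marked.

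Of the cytokines and chemokines, 3 fell. IL23A, the subunit that is particular to interleukin 23, stood at 8.81, 8.17, 9.06 and 8.70 in control and 8.19, 7.68, 7.71 and 7.76 in knockdown. It fell by 0.85 ± 0.15 (adjusted p = 0.0012), and its groups overlapped only through control replicate 2 and knockdown replicate 1. CXCL10, a chemokine that draws activated T cells, stood at 7.80, 8.15, 7.87 and 7.37 in control and 7.16, 7.18, 7.16 and 6.80 in knockdown. The groups did not overlap, and it fell by 0.72 ± 0.18 (adjusted p = 0.025). INHBA, a subunit of activin, fell by 0.58 ± 0.15 (adjusted p = 0.028) and knockdown replicate 4, at 8.05, lay nearest to the control arrays at 8.18 to 8.28. These were the 3 called of 29 measured cytokine and chemokine genes, with 0 higher, where 0.807% of all genes were lower and 1.28% higher; the median of the 29 was -0.22, and 23 were below 0. The calls were not equally firm: that of IL23A was kept without any 1 array, that of CXCL10 was lost without control replicate 1, 2 or 3 or knockdown replicate 4 (adjusted p up to 0.14), and that of INHBA without control replicate 1, 2 or 3 or knockdown replicate 2 or 3 (adjusted p up to 0.145). The list's count was 1 without control replicate 1, 2 or 3. Before IL1B, 4 of the 29 were called higher in the knockdown and 1 lower, where 3.31% of all probe sets were called.

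Other cytokines were not called. CCL20, which attracts dendritic cells and lymphocytes, stood at 12.53, 12.76, 12.45 and 12.52 in control and 12.40, 12.21, 12.19 and 12.18 in knockdown (difference -0.32 ± 0.15, adjusted p = 0.39). Its groups did not overlap, yet the spread of the gene over the whole series exceeded that on these arrays. IL1B itself differed by -0.55 ± 0.15 (adjusted p = 0.058) and IL6 by -0.36 ± 0.12 (adjusted p = 0.15). CXCL8, the main neutrophil chemokine, differed by -0.11 ± 0.10, and CCL2, which draws monocytes, by -0.01 ± 0.08, with overlapping groups in both. The difference of IL1B passed the threshold without knockdown replicate 1 (adjusted p = 0.0387), after quantile normalization (0.0421) and with a covariate for small nucleolar RNA (0.0296). It also passed with the replicate number as a fixed block (0.0031). CCL2 had no settled direction, since its difference became 0.02 without control replicate 4.

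Among adhesion molecules, acute phase genes and proteases, 2 fell and 2 rose. SELE, the selectin that slows leukocytes on a vessel wall, stood at 9.43, 9.61, 9.22 and 9.05 in control and 8.86, 8.66, 8.65 and 8.39 in knockdown. All knockdown arrays were below all control arrays, and it fell by 0.69 ± 0.15 (adjusted p = 0.0061). PLAU, the urokinase protease, fell by 0.36 ± 0.10 (adjusted p = 0.039), a call lost without control replicate 1, 2 or 3 or knockdown replicate 1, 3 or 4 (adjusted p up to 0.162). MMP9, a gelatinase, rose by 0.52 ± 0.11 (adjusted p = 0.0073), with 5.20 to 5.57 in control and 5.67 to 6.01 in knockdown. These levels were low, since the lower quartiles of the arrays were 6.61 to 6.64. The MMP9 call was lost with the 8 arrays of 4 h alone (adjusted p = 0.0745) and without both 4 h arrays numbered 4 (0.0585). C3, a complement component, rose by 0.26 ± 0.06 (adjusted p = 0.0142), a call lost without control replicate 1 or 3 (adjusted p up to 0.0665). Of 23 measured genes of the list 2 were higher and 2 lower, with a median of -0.20, against 1.28% and 0.807% of all genes. The lower count was 4 without control replicate 4 and 1 without control replicate 1, 2 or 3 or knockdown replicate 3 or 4, and the higher count was 1 without control replicate 1 or 3. OLR1, a scavenger receptor (difference -0.59 ± 0.17, adjusted p = 0.073), TNFAIP6, which binds hyaluronan (-0.56 ± 0.16, adjusted p = 0.0597) and ICAM1, the integrin ligand (-0.32 ± 0.11, adjusted p = 0.14), were not called, although OLR1 passed without control replicate 4 or knockdown replicate 1 and TNFAIP6 without control replicate 4. Both passed when dim probe sets were left out (adjusted p of 0.0483 and 0.0394), and TNFAIP6 with array weights (0.0452). With the replicate number as a fixed block, OLR1, TNFAIP6 and ICAM1 all passed (adjusted p of 0.0024, 0.0288 and 0.0145).

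Of the NF-kB subunits and regulators, 4 fell. IRAK2, a pseudokinase of the IL1 receptor complex, stood at 11.54, 11.57, 11.55 and 11.68 in control and 11.15, 11.26, 11.25 and 11.26 in knockdown. The groups were clearly apart, and it fell by 0.36 ± 0.06 (adjusted p = 0.00101). NFKBID, a nuclear inhibitor-type regulator of NF-kB, fell by 0.36 ± 0.07 (adjusted p = 0.0029), from 9.80 to 10.04 in control to 9.54 to 9.60 in knockdown. IRAK3, which damps signalling by the receptor complex, fell by 0.66 ± 0.17 (adjusted p = 0.0397), and MAP3K8, a kinase upstream of ERK, by 0.33 ± 0.09 (adjusted p = 0.045). The IRAK3 call was lost without control replicate 1, 2 or 3 or knockdown replicate 1, 2 or 4 (adjusted p up to 0.146), and that of MAP3K8 without control replicate 2, 3 or 4 or knockdown replicate 1, 2 or 4 (adjusted p up to 0.146). In all, 4 of 32 measured NF-kB subunits and regulators were lower and 0 higher (0.807% and 1.28% of all genes), with a median of -0.09. Without control replicate 2 or 3 or knockdown replicate 1, 2 or 4, 2 were lower. Before IL1B the direction was mostly the other: 7 of the 32 were called higher and 1 lower, where 3.31% of all probe sets were called. NFKBIA, the classical inhibitor (difference -0.07 ± 0.06), and SOD2, an antioxidant enzyme that NF-kB induces (-0.07 ± 0.06), were not called. IRAK2 and IRAK3 were counted in the NF-kB list and are not among the 14 measured genes listed as proximal IL1 signalling. None of those 14 was called, by limma with 38 arrays, where 2.09% of all genes were called. Nor was any of the 34 measured for the immediate-early response and its MAP kinase feedback. With knockdown replicate 1 or control replicate 4 left out, 1 of the 34 was called higher.

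Further IL1B-raised genes fell. NCR3LG1, a ligand of an activating receptor of natural killer cells, stood at 10.20, 10.13, 10.06 and 9.91 in control and 9.18, 9.05, 9.13 and 9.12 in knockdown. It fell by 0.96 ± 0.12 (adjusted p = 1.23e-05), and the lowest control array was well above the highest knockdown array. EFNA1, a membrane-bound ephrin ligand, stood at 10.24, 10.32, 10.29 and 9.99 in control and 9.47, 9.81, 9.46 and 9.36 in knockdown, and fell by 0.68 ± 0.13 (adjusted p = 0.0014) with no overlap. SNAPC1, a subunit of the complex that starts small nuclear RNA genes, fell by 0.62 ± 0.11 (adjusted p = 0.0013), and F3, the tissue factor that starts coagulation, by 0.43 ± 0.09 (adjusted p = 0.0073). The calls of these 4 genes were kept without any 1 array. IRF1, a transcription factor of the interferon response, fell by 0.63 ± 0.17 (adjusted p = 0.047), a call lost without control replicate 1, 2 or 3 or knockdown replicate 3 or 4 (adjusted p up to 0.207). It was the only called gene of 45 measured in the interferon-stimulated list (2.22%, near the 2.09% of all genes), and the list's median was -0.03. CXCL10 was counted with the cytokines and chemokines and not in this list.

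**Figure D2:**
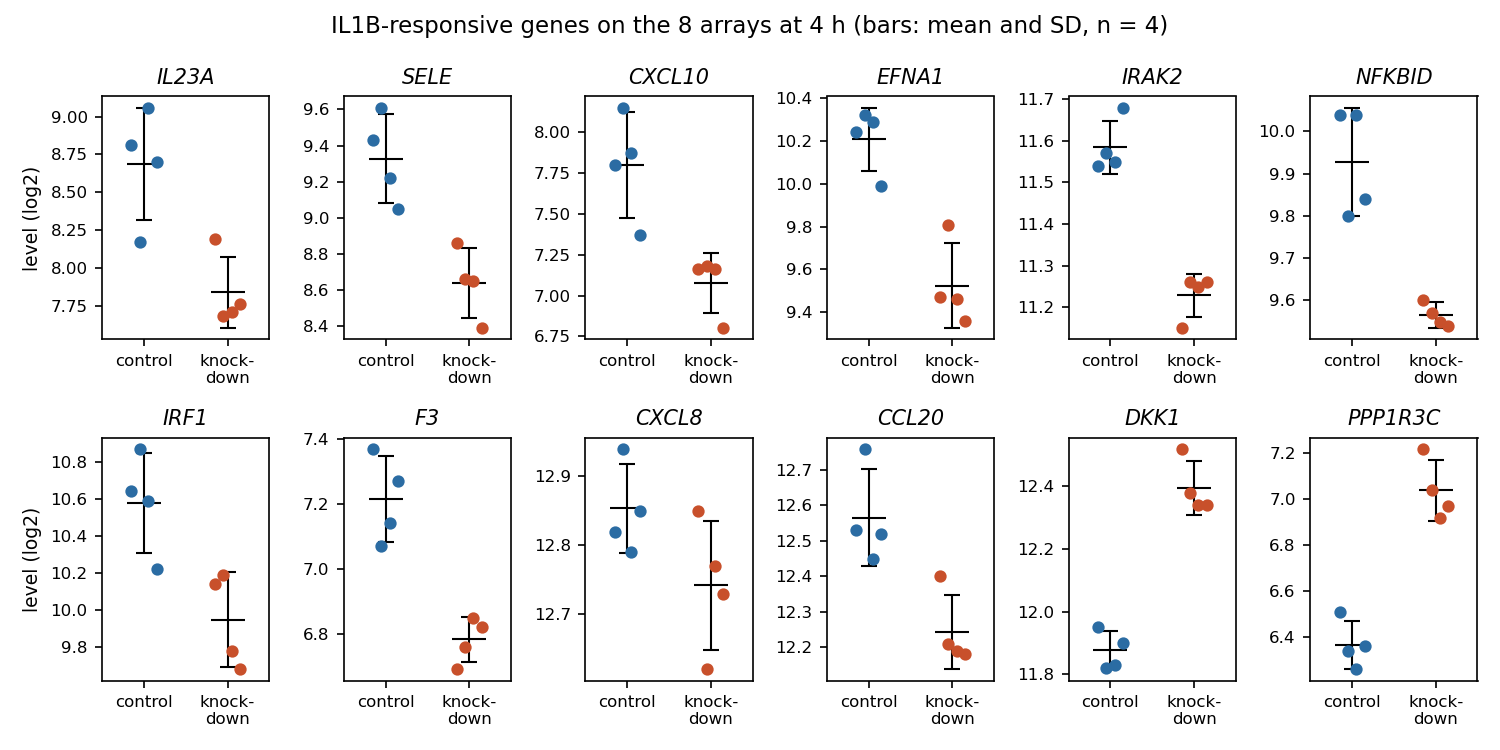
Log2 level on each array at 4 h of IL1B for 12 genes that IL1B raises or lowers, control in blue and knockdown in red (points: arrays; bars: mean and SD, n = 4). SELE, CXCL10, EFNA1, IRAK2, NFKBID, IRF1, F3 and CCL20 lie wholly below the control arrays, IL23A and CXCL8 overlap, and DKK1 and PPP1R3C lie above the control arrays.

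Some genes that IL1B lowers rose in the knockdown. Of 51 probe sets that fell at least 2-fold from 0 to 2 h in control cells, 5 were higher at 4 h (9.8%, against 1.11% of all probe sets) and 0 lower. Their median was 0.21 and 44 of the 51 were above 0. DKK1, a secreted inhibitor of Wnt signalling, stood at 11.95, 11.82, 11.83 and 11.90 in control and 12.52, 12.38, 12.34 and 12.34 in knockdown. It rose by 0.52 ± 0.05 (adjusted p = 3.38e-07), and the groups were far apart. PPP1R3C, which targets a protein phosphatase to glycogen, rose by 0.67 ± 0.14 (adjusted p = 0.0047), from 6.26 to 6.51 in control to 6.92 to 7.22 in knockdown. TFAP4, a transcription factor (0.37 ± 0.08), FIGN, a microtubule-severing protein (0.50 ± 0.12), and SLC2A3, a glucose transporter (0.51 ± 0.13), were the others. TFAP4 was not called without control replicate 3 (adjusted p = 0.0589), FIGN without control replicate 2 or 3 or knockdown replicate 3 or 4 (adjusted p up to 0.0958), and SLC2A3 without control replicate 2, 3 or 4 or knockdown replicate 1 or 4 (adjusted p up to 0.114). The count of 5 was 3 without control replicate 2, control replicate 3 or knockdown replicate 4.

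The share of IL1B-raised probe sets called higher, 1.28%, was near that of all probe sets, 1.11%, and the 4 are given for completeness. SLCO5A1, of the organic anion transporter family, had a mean of 7.06 ± 0.06 (SD, n = 4) in control and stood at 7.43, 7.59, 7.98 and 7.71 on the knockdown arrays. It rose by 0.62 ± 0.11 (adjusted p = 0.00072) with no overlap. SPHK1, the kinase that makes sphingosine 1-phosphate, stood at 7.87, 7.82, 7.72 and 8.03 in control and 8.53, 8.44, 8.16 and 8.52 in knockdown. It rose by 0.55 ± 0.13 (adjusted p = 0.012); its groups did not overlap, and the call was lost without control replicate 3 or knockdown replicate 4 (adjusted p up to 0.0652). FGF5, a fibroblast growth factor (0.63 ± 0.16), was not called without control replicate 1, 2 or 3 or knockdown replicate 1 or 4 (adjusted p up to 0.154), and TMEM133 (0.38 ± 0.10) not without control replicate 1, 3 or 4 or knockdown replicate 3 or 4 (adjusted p up to 0.146). The count of these 4 higher genes was 2 without control replicate 1 and 1 without control replicate 3 or knockdown replicate 4.

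Among sphingolipid genes, those called act on sphingosine 1-phosphate or sphingomyelin. SGPP1, the phosphatase that turns sphingosine 1-phosphate back into sphingosine, stood at 8.89, 8.71, 8.71 and 8.69 in control and 7.88, 8.01, 8.08 and 7.85 in knockdown. It fell by 0.79 ± 0.09 (adjusted p = 6.86e-07), with a wide gap between the groups. SMPD1, the acid sphingomyelinase of the lysosome, rose by 0.41 ± 0.10 (adjusted p = 0.015), a call lost without control replicate 3 or knockdown replicate 1, 2 or 4 (adjusted p up to 0.0688). With SPHK1 these were the 3 called of 28 measured genes of sphingolipid turnover, 2 higher and 1 lower (1.28% and 0.807% of all genes), with a median of -0.02. The higher count was 0 without control replicate 3 or knockdown replicate 4, and 1 without knockdown replicate 1 or 2. SPTLC1 (difference -0.06 ± 0.09) and SPTLC2 (0.07 ± 0.08), the catalytic pair of serine palmitoyltransferase, were not called. Nor was any of the 10 measured genes of de novo synthesis (2.09% of all genes were called). Their differences lay between -0.25 and 0.07, the lowest being CERS5, a ceramide synthase, with an SE of 0.25.

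ACAT1, CARNMT1, QNG1, CYP2U1 and NPR3 were among the lowest differences. ACAT1, the mitochondrial thiolase of ketone body and isoleucine metabolism, stood at 9.13, 9.37, 9.21 and 8.73 in control and 8.53, 8.28, 7.76 and 7.87 in knockdown. It fell by 1.00 ± 0.14 (adjusted p = 6.05e-05) without overlap. Of 30 genes measured for mitochondrial fat, ketone and branched-chain metabolism it alone was called (3.33%, against 2.09% of all genes). CARNMT1, which methylates carnosine, stood at 8.90, 8.67, 8.63 and 8.70 in control and 8.09, 7.74, 8.06 and 7.84 in knockdown, and fell by 0.79 ± 0.09 (adjusted p = 9.42e-07). QNG1, which frees the base queuine from its nucleoside, fell by 0.69 ± 0.14 (adjusted p = 0.0047), and CYP2U1, a cytochrome that hydroxylates fatty acids, by 0.66 ± 0.12 (adjusted p = 0.00072). All 4 calls were kept without any 1 array. NPR3, the clearance receptor for natriuretic peptides, has more than 1 probe set, and both measured fell, by 0.75 ± 0.14 (adjusted p = 0.0011) and 0.64 ± 0.10 (adjusted p = 0.00028).

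Of the ATF4 and amino acid list, 3 genes fell and 1 rose. NUPR1, a small chromatin-bound regulator that stress induces, stood at 7.99, 7.89, 8.05 and 7.96 in control and 7.45, 7.43, 7.43 and 7.23 in knockdown, and fell by 0.59 ± 0.10 (adjusted p = 0.000575) with no overlap. SLC1A5, the glutamine transporter, fell by 0.44 ± 0.08 (adjusted p = 0.00072), and PSAT1, of serine synthesis, by 0.41 ± 0.09 (adjusted p = 0.0047). TRIB3, a pseudokinase that restrains the ATF4 response, rose by 0.45 ± 0.08 (adjusted p = 0.00073). These were the called members of 33 measured genes of the ATF4 and amino acid response, 1 higher and 3 lower (1.28% and 0.807% of all genes), with a median of -0.01, and their number was the same without any 1 array. HMOX1, haem oxygenase, fell by 0.50 ± 0.09 (adjusted p = 0.00072), from 11.36 to 11.69 in control to 10.93 to 11.19 in knockdown. Of 24 NRF2 targets it alone was called (4.17%, against 2.09% of all genes), and 2 were called without knockdown replicate 2. SLC2A1, the main glucose transporter, fell by 0.38 ± 0.07 (adjusted p = 0.00196). PLA2G15, a lysosomal phospholipase, fell by 0.58 ± 0.08 (adjusted p = 5.63e-05), and HPGD, which inactivates prostaglandins, rose by 0.38 ± 0.08 (adjusted p = 0.0043). With PTGER4, a prostaglandin receptor, they were the called members of 15 measured prostaglandin and leukotriene genes, 1 higher and 2 lower (1.28% and 0.807% of all genes); 1 was lower without control replicate 1 or 3 or knockdown replicate 3 or 4. None of 31 genes of the unfolded protein response was called by limma with 38 arrays, where 2.09% of all genes were called. HSPA5, its main chaperone, differed by 0.06 ± 0.06.

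**Figure D3:**
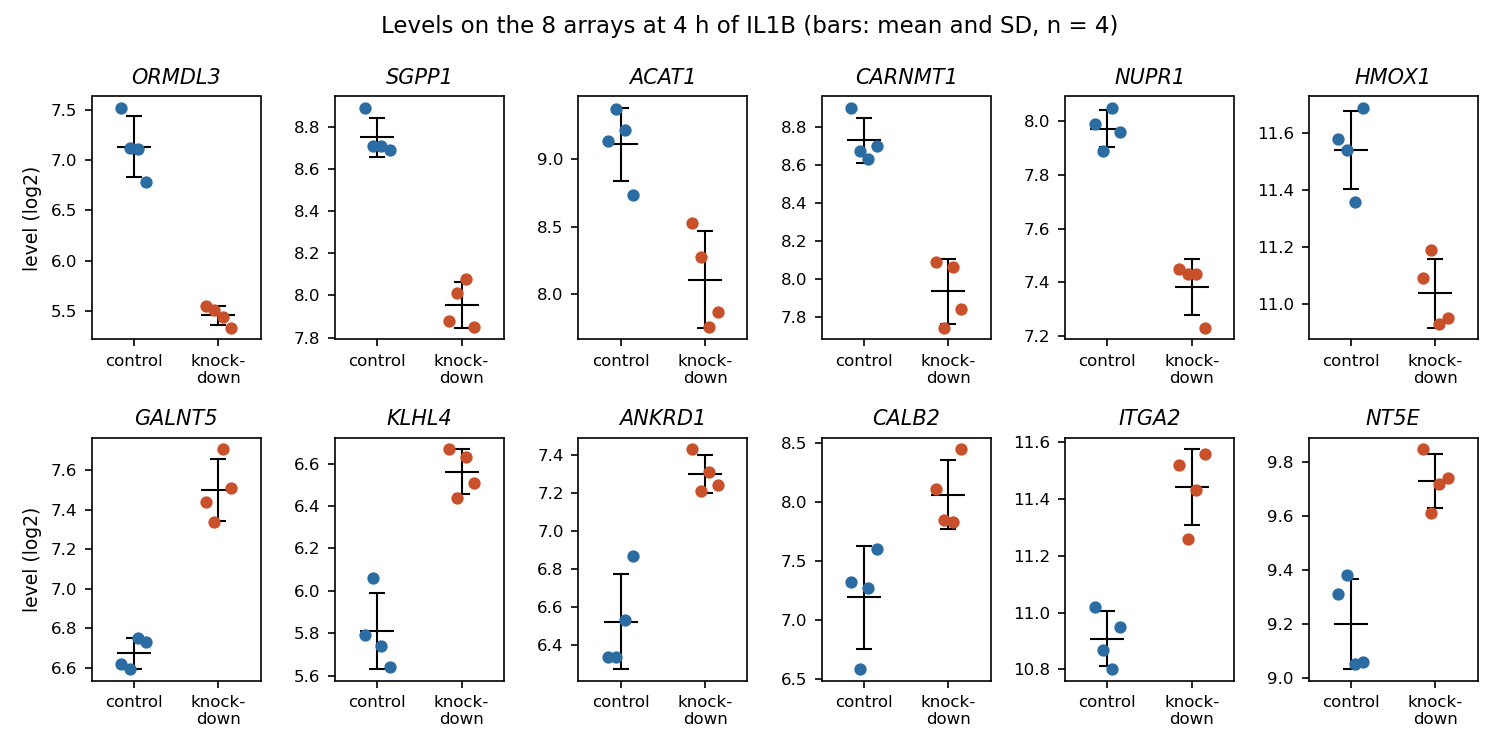
Log2 level on each array at 4 h of IL1B for ORMDL3 and 11 genes that were lower or higher in the knockdown (points: arrays, control blue and knockdown red; bars: mean and SD, n = 4). No gene shown has overlapping groups; SGPP1 stands at 8.69 to 8.89 in control and 7.85 to 8.08 in knockdown, and GALNT5 at 6.59 to 6.75 and 7.34 to 7.71.

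Among the highest differences was that of GALNT5. GALNT5, which starts mucin-type glycans, stood at 6.62, 6.59, 6.75 and 6.73 in control and 7.44, 7.34, 7.71 and 7.51 in knockdown. It rose by 0.83 ± 0.10 (adjusted p = 8.75e-06), and every knockdown array was above every control array. KLHL4, of the kelch-like family, rose by 0.75 ± 0.12 (adjusted p = 0.00017), and CORO2B, an actin-binding coronin, by 0.72 ± 0.13 (adjusted p = 0.0009). MTSS1, a scaffold that bends membranes over actin, rose by 0.69 ± 0.14 (adjusted p = 0.0028). CLTRN, collectrin (0.68 ± 0.13, adjusted p = 0.0021), and CPM, a membrane carboxypeptidase (0.68 ± 0.13, adjusted p = 0.0024), rose by like amounts. The calls of these 6 genes were kept without any 1 array.

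CALB2, the calcium-binding protein calretinin, had the largest rise of a gene named by 1 symbol. It stood at 7.32, 6.58, 7.27 and 7.60 in control and 8.11, 7.85, 7.83 and 8.45 in knockdown, and rose by 0.87 ± 0.21 (adjusted p = 0.021). The groups did not overlap, yet the control arrays were spread widely, and the call was lost without control replicate 2 or 3 or knockdown replicate 1 or 4 (adjusted p up to 0.151). It was the only called gene of 20 of calcium stores (5%, against 2.09% of all genes). TSPAN18, a tetraspanin (0.79 ± 0.17, adjusted p = 0.00696), was called except without knockdown replicate 4 (adjusted p = 0.0534). SEMA7A, a membrane-anchored semaphorin (0.75 ± 0.16, adjusted p = 0.0076), was called except without control replicate 3 (adjusted p = 0.0558).

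Targets of YAP and TEAD, the transcription factors that answer to cell shape and density, had the largest share of called genes among the lists of 20 or more genes. Of 22 measured, 6 were higher and 1, F3, was lower (31.8% called, against 2.09% of all genes, 1.28% higher and 0.807% lower), with a median of 0.21 and 19 above 0. ANKRD1, a nuclear ankyrin-repeat protein, stood at 6.34, 6.34, 6.53 and 6.87 in control and 7.43, 7.21, 7.31 and 7.24 in knockdown. It rose by 0.78 ± 0.14 (adjusted p = 0.0014), and control replicate 4 lay nearest to the knockdown arrays. NT5E, which makes adenosine outside the cell, rose by 0.53 ± 0.09 (adjusted p = 0.00049), and AXL, a receptor tyrosine kinase, by 0.61 ± 0.14 (adjusted p = 0.011). The other higher ones were AJUBA, RBMS3 and MYOF, with rises of 0.22 to 0.43. AXL was not called without control replicate 2 or knockdown replicate 4 (adjusted p up to 0.0777). The count of 6 was 2 without control replicate 2 or knockdown replicate 4 and 3 without knockdown replicate 1.

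Of the matrix and integrin genes, 4 of 27 measured rose. ITGA2, the collagen-binding integrin chain, stood at 11.02, 10.87, 10.80 and 10.95 in control and 11.52, 11.26, 11.43 and 11.56 in knockdown. It rose by 0.53 ± 0.07 (adjusted p = 1.23e-05) without overlap. SPARC, a collagen-binding matrix protein, rose by 0.69 ± 0.15 (adjusted p = 0.00798), ITGB4, the hemidesmosome integrin chain, by 0.63 ± 0.14 (adjusted p = 0.011), and COL5A1, a fibrillar collagen chain, by 0.46 ± 0.10 (adjusted p = 0.011). These were the 4 called of 27 measured, with 0 lower and a median of 0.11, where 1.28% of all genes were higher and 0.807% lower. SPARC was not called without control replicate 3 (adjusted p = 0.0642), ITGB4 without control replicate 1 or 3 or knockdown replicate 4 (adjusted p up to 0.0742), and COL5A1 without control replicate 2 or 3 or knockdown replicate 4 (adjusted p up to 0.0748). The count of 4 was 1 without control replicate 3 and 2 without knockdown replicate 4. Beside these, the 3 measured fibroblast and endothelial markers differed by 0.10 to 0.16, and their part was not tested.

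Of the cholesterol genes, 3 of 20 measured rose. HMGCS1, of early cholesterol synthesis, stood at 10.64, 10.87, 10.47 and 10.79 in control and 10.90, 11.11, 11.28 and 11.29 in knockdown, and rose by 0.46 ± 0.12 (adjusted p = 0.0403). MSMO1, a later enzyme, rose by 0.34 ± 0.08 (adjusted p = 0.013), and INSIG1, which holds the sterol-sensing complex in the endoplasmic reticulum, by 0.32 ± 0.06 (adjusted p = 0.0035). These were the 3 called of 20 measured, with 0 lower, where 1.28% of all genes were higher and 0.807% lower; 19 of the 20 were above 0, and the median was 0.15. HMGCS1 was not called without control replicate 1 or 3 or knockdown replicate 2, 3 or 4 (adjusted p up to 0.196), nor MSMO1 without knockdown replicate 1 or 4 (adjusted p up to 0.0598). The count was 1 without knockdown replicate 4. Of 30 gene lists examined, 14 had no called member. Among them were fatty acid and glycerolipid synthesis, oxidative phosphorylation, mitosis, p53 targets, lysosome and autophagy, and MHC class I. The genes next to ORMDL3 on its chromosome and the lists of cell type markers were others. Over all genes 2.09% were called, so a list of few genes can lack a call without differing from the rest.

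**Figure D4:**
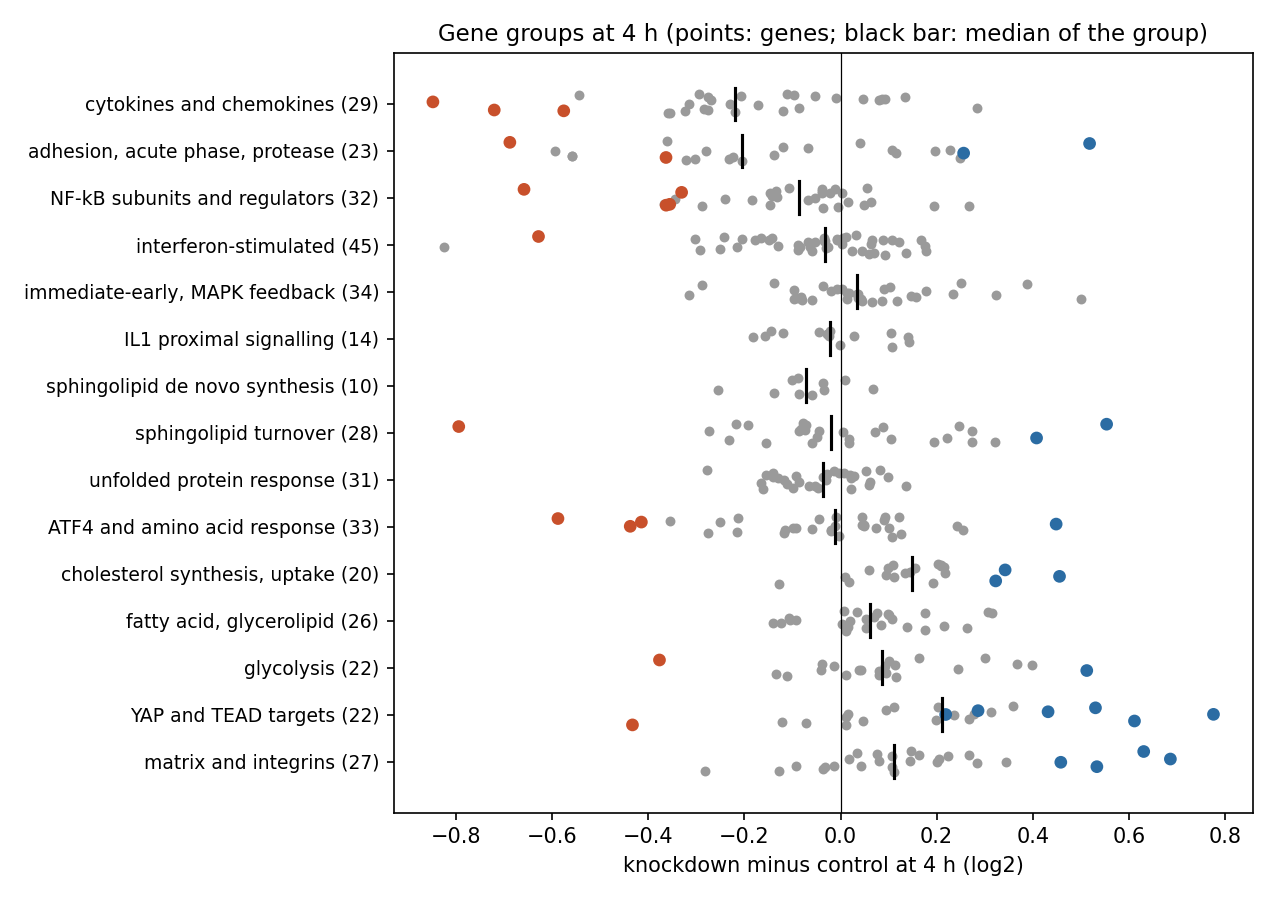
Difference between knockdown and control at 4 h (x axis, log2) for the measured genes of 15 lists, with the number measured in parentheses. Red points were called lower and blue points called higher, grey points were not called, and black bars are medians; the medians run from -0.22 for cytokines and chemokines to 0.21 for YAP and TEAD targets.

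The differences at 4 h were set beside those at the other hours, which come from other arrays. Of the 267 called probe sets, 247 had the same sign before IL1B, 256 after 2 h, 257 after 8 h and 258 after 10 h. Called in the same direction before IL1B were 124, which is 46.4% of the 267 and 25.8% of those called at that hour. The like counts were 171 after 2 h (64% and 19.1%), 138 after 8 h (51.7% and 33.1%) and 113 after 10 h (42.3% and 34.2%). At all 5 hours 53 were called, and 44 only at 4 h. None of those 44 was called by limma for the difference between 4 h and 0, 2 or 8 h. A call at 4 h alone thus does not show a difference particular to 4 h. Over all probe sets the calls at 0, 2, 8 and 10 h were 3.31%, 6.18%, 2.88% and 2.28%.

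Many of the genes named here differed already before IL1B. SGPP1 differed, in the order of the 5 hours, by -0.80, -0.83, -0.79, -0.58 and -0.72, and was called at each hour. ORMDL3, ACAT1, CARNMT1, NPR3, QNG1, NUPR1, PLA2G15 and HMOX1 were lower, and GALNT5, KLHL4, ANKRD1, ITGA2, NT5E, COL5A1, CPM, CLTRN and TSPAN18 higher, with a call at all 5 hours. SELE, EFNA1, IL23A and CXCL10, which IL1B raises, were near 0 before it. SELE differed by -0.07, -0.29, -0.69, -0.43 and -0.36 over the same hours, and EFNA1 by -0.08, -0.35, -0.68, -0.36 and -0.34, both called at 4 h alone. IL23A differed by -0.09, -0.34, -0.85, -0.65 and -0.34 and was called at 4 and 8 h. CXCL10 differed by -0.12, -0.27, -0.72, -1.15 and -0.84, so that its lowest value came at 8 h. These orders are descriptions, since for none of SELE, EFNA1, IL23A and CXCL10 did a test of the difference between 4 h and 0, 2 or 8 h pass the threshold.

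**Figure D5:**
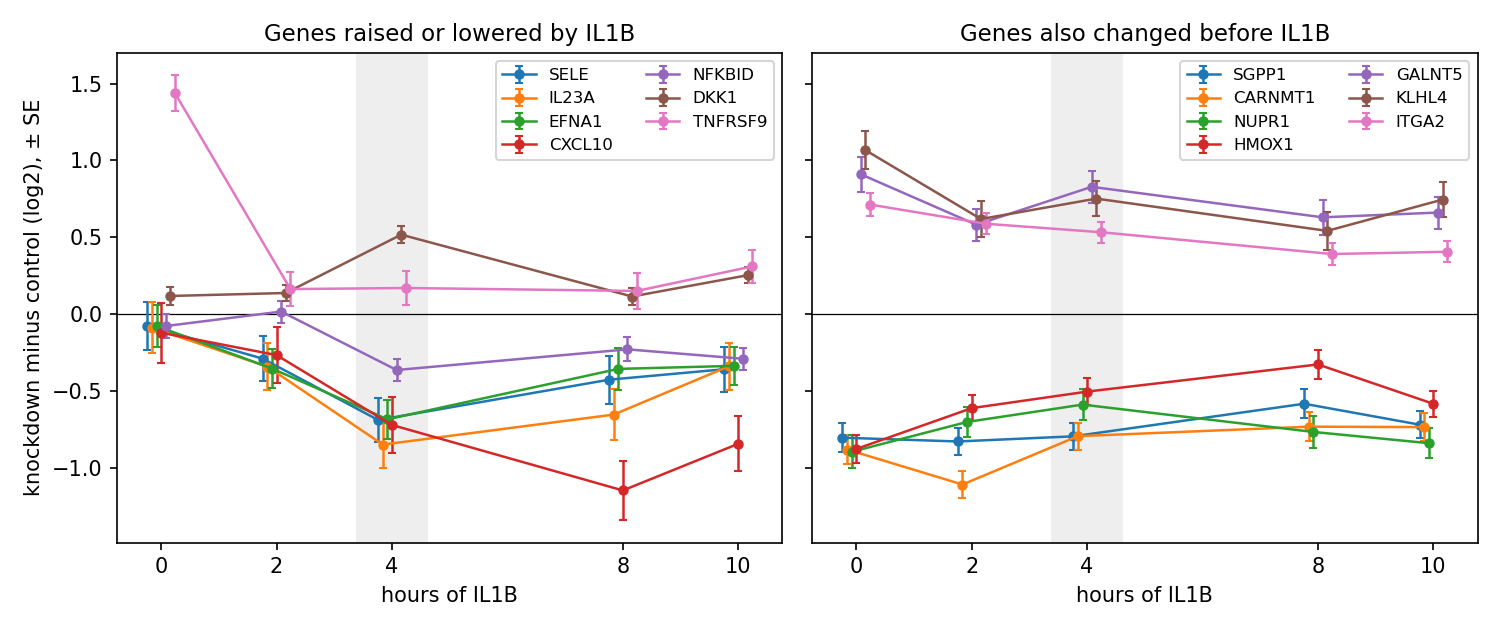
Difference between knockdown and control (log2, ± SE) at 0, 2, 4, 8 and 10 h of IL1B, with 4 h shaded; points are shifted slightly sideways for legibility. On the left, SELE, IL23A, EFNA1 and CXCL10 start near 0 and TNFRSF9 starts at 1.44; on the right, SGPP1, CARNMT1, NUPR1 and HMOX1 are below 0 and GALNT5, KLHL4 and ITGA2 above 0 at each hour.

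The test of the difference between hours called 10 probe sets for 4 h against 0 h, 1 higher and 9 lower (0.069% of all, 0.0069% higher and 0.0621% lower), and 0 (0%) for 4 h against 2 h or 8 h by limma, where 649 and 427 had an unadjusted p under 0.05. With settings that change the spread, 4 h against 2 h gave at most 1 call and 4 h against 8 h at most 2. The 7 of the 10 with a gene symbol included 6 that were higher in the knockdown at 0 h and were not higher, with a call, at 4 h. TNFRSF9, a costimulatory receptor also called CD137, differed by 1.44 at 0 h and 0.17 at 4 h, a change of -1.27 ± 0.16 (adjusted p = 2.73e-05). EBI3, a cytokine subunit, went from 0.92 to 0.09 (-0.82 ± 0.13), IL6 from 0.53 to -0.36 (-0.89 ± 0.18), and IL32, a cytokine, from 0.51 to -0.35 (-0.86 ± 0.17). PLAU went from 0.39 to -0.36 (-0.75 ± 0.14) and NFKB2, a subunit of NF-kB, from 0.55 to -0.04 (-0.59 ± 0.12). DKK1 went the other way, from 0.12 to 0.52 (0.40 ± 0.08). The calls of TNFRSF9 and EBI3 were kept without any 1 of the 15 arrays of both hours. The other 5 calls were all lost with the arrays of 0 and 4 h alone (adjusted p of 0.113 to 0.559). Those of IL6, IL32 and NFKB2 were lost after quantile normalization (0.0712, 0.0611 and 0.107) and after median centring (0.0634, 0.0532 and 0.127), and those of IL6, IL32 and PLAU with a covariate for small nucleolar RNA (0.121, 0.121 and 0.112); that of IL6 was also lost with array weights (0.0653). All 5 were also lost without single arrays. For IL6 these were control replicates 1, 2 and 3 and knockdown replicate 1 of 0 h and all of 4 h except knockdown replicate 4 (adjusted p here up to 0.201). For NFKB2 they were control replicates 1, 2 and 3 and knockdown replicates 1 and 4 of 0 h, and control replicates 1, 3 and 4 and knockdown replicates 1, 2 and 3 of 4 h (up to 0.163). For IL32 they were control replicates 2 and 3 and knockdown replicates 1 and 2 of 0 h, and control replicates 1, 2 and 3 and knockdown replicates 2, 3 and 4 of 4 h (up to 0.111). For DKK1 they were control replicates 2 and 3 and knockdown replicates 1 and 4 of 0 h, and control replicates 2 and 3 and knockdown replicates 1 and 2 of 4 h (up to 0.117). For PLAU they were control replicate 2 and knockdown replicate 4 of 0 h, and control replicates 1 and 2 and knockdown replicates 3 and 4 of 4 h (up to 0.117). Each such fit called 5 to 12 probe sets in all.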

How the data were processed

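The build hg19 and the tools limma 3.22.7, RMA and Affymetrix Power Tools are listed, per the submitters' processing notes, with no role or order. The deposited table holds the authors' RMA values, log2 levels per probe set, for 38 arrays; no scanner files were used here. RMA equalises the arrays' distributions, so a change in total RNA is not visible in it, and for arrays the number of arrays limits the precision. Gene names came from the platform annotation. Of the 12132 probe sets with 1 symbol, 12121 were matched by Entrez number to RefSeq symbols; 628 named several genes and 1728 none, and from these no gene is named.

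Knockdown was compared with control in limma 3.58.1 (R 4.3.3), with 1 mean for each of the 10 groups, so that all arrays share the estimate of spread, moderated variances, and Benjamini-Hochberg adjustment over 14488 probe sets. Differences between hours are contrasts in the same fit. Genes with more than 1 probe set (209) are counted in lists by 1 probe set each. On simulated data of the same size the fit recovered 98 of 100 probe sets changed by 1 and 67 of 100 changed by 0.5 (log2). The simulated noise was independent and normal, with 1 spread per probe set for all groups. It had no array or replicate effects, and no knockdown effect at the other hours. These counts therefore do not give the recovery on the real arrays. Named are the 15 highest and 15 lowest called differences with 1 symbol, up to 4 called members of each list, the 3 highest and 3 lowest for each difference between hours, and a short list of genes named whether called or not. Of the genes that this takes, IRF8, GLI2, DCLK1, CPA4, IL15RA and some others are left out for length. EBI3, TFAP4, FIGN and TMEM133 were named after their values were seen. The members and the gene lists were chosen with earlier results of these data known. No 2 arrays of a group were near-identical. Deviations of same-numbered control and knockdown arrays at 4 h correlated at 0.20, 0.20, -0.12 and 0.58. Those of arrays with unlike numbers correlated at -0.48 to 0.31. With the number as a random block the consensus correlation was 0.14. The labels do not say that the numbers pair the samples, so they were not taken to. Fits with a replicate block are given as alternatives.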

Additional observations from a re-analysis of the deposited data

Results flagged for a closer look

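Among the genes reported, 160 groups of 4 arrays were examined for 1 array far from the other 3 (Dixon's ratio above its 95% critical value), and 13 had one, where chance gives about 1 in 20. Of knockdown arrays, replicate 1 was highest for IL23A (8.19), CCL20 (12.40), HPGD (12) and SLC2A3 (8.39) and lowest for IRAK2 (11.15). Replicate 4 was lowest for CXCL10 (6.80), QNG1 (7.53) and NUPR1 (7.23) and highest for AXL (11.49), and replicate 3 was highest for IRAK3 (6.57). Of control arrays, replicate 1 was highest for SGPP1 (8.89) and lowest for MAP3K8 (10.91), and replicate 2 was highest for ORMDL2 (11.61).

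The effect of the knockdown differed between 4 h and 0 h for TNFRSF9 (-1.27), IL6 (-0.89), IL32 (-0.86), EBI3 (-0.82), PLAU (-0.75), NFKB2 (-0.59) and DKK1 (0.40), by the limma contrast between the 2 differences.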

How the results depend on the processing

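The 80 named probe sets had 1489 values under the alternatives, the reported values not counted. Of these, 1292 kept their direction and side of the threshold, 170 lost the call, 21 gained it and 6 changed sign. Those 6 concern 3 uncalled genes. Without 1 array, NFKB2 ran from -0.07 to 0.02 (the latter without control replicate 4), ORMDL1 from -0.10 to 0.07 (without control replicate 2) and CCL2 from -0.07 to 0.02 (without control replicate 2 or 4); CCL2 was 0.02 with array weights and 0.01 without both arrays numbered 4. For 28 named probe sets every alternative run gave the same direction and side. The number called at 4 h was 36 with the 8 arrays alone, 623 with the replicate number as a fixed block, 501 as a random block, 87 with the 8 arrays and the block, 152 to 366 without 1 array, and 166 without both arrays numbered 4, an alternative chosen after the data were seen. In the same order, calls lower among IL1B-raised probe sets were 4, 44, 35, 12, 10 to 26 and 14; calls higher among them 0, 10, 8, 3, 1 to 5 and 2; and calls higher among IL1B-lowered probe sets 2, 12, 9, 3, 3 to 7 and 2. Leaving out dim probe sets gave 12, 1 and 3, and a 4-fold limit for the sets gave 11, 0 and 0. For 4 h against 0 h, calls were 2 with the arrays of both hours alone, 30 with the replicate block, 24 with the random block, 4 with those arrays and the block, 17 without dim probe sets, 6 after quantile normalization, 6 after median centring, 46 with array weights and 5 to 12 without 1 array. For 4 h against 2 h, 1 was called with a variance trend; for 4 h against 8 h, 1 with either block, 2 without dim probe sets, 2 with a variance trend and 1 with a covariate for small nucleolar RNA. With the replicate block, genes uncalled at 4 h passed the threshold: OLR1 (adjusted p = 0.0024), IL1B (0.0031), ICAM1 (0.0145), IL32 (0.0203) and TNFAIP6 (0.0288); the random block gave 0.0106, 0.00955, 0.0383, 0.0388 and 0.0298. The labels do not say what same-numbered arrays share beyond the number. The fits with all arrays borrow their spread from the other hours; why the counts differ was not tested.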
